A study of Mus musculus with 4 samples.

Results

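The genes described here are the 10 that make, package, recapture and begin to break down catecholamines: *Th*, *Ddc*, *Dbh*, *Pnmt*, *Gch1*, *Cyb561*, *Slc18a1*, *Slc18a2*, *Slc6a2* and *Maoa*. They were picked out by symbol from 52636 gene rows, and each symbol had 1 row. The set was chosen by people who already knew how these genes differed between the 2 genotypes, so the read counts and the genotype contrast that chose them are given below as a description and support nothing by themselves. RNA of tdTomato+ kidney cells was sequenced in 4 libraries, each from 5000 cells isolated by FACS 48 h after tamoxifen was first given, from embryos of about E12.5 to E12.75. The 2 control libraries came from *Eya1*CreER embryos with the tdTomato reporter at *R26*, and the 2 *Eya1*cKO libraries from embryos that carried floxed *Eya1* (*Eya1* fl/fl) in addition. Both genotypes therefore carried the CreER allele and the reporter, both received tamoxifen, and both were on a mixed C57BL/6J and 129/Sv background. CreER was driven by *Eya1*, so recombination and the red label were limited to cells in which *Eya1* was active at the time of tamoxifen, and to their descendants. Suspensions from several embryos were combined before sorting and the libraries of a genotype are portions sorted at the same time, so the spread between them, on which every *P* value here rests, may be technical.

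Catecholamines are made from tyrosine in a fixed order of steps. Tyrosine hydroxylase (*Th*) makes L-DOPA with the cofactor tetrahydrobiopterin, aromatic L-amino acid decarboxylase (*Ddc*) makes dopamine, dopamine β-hydroxylase (*Dbh*) makes noradrenaline inside vesicles with ascorbate and copper, and phenylethanolamine N-methyltransferase (*Pnmt*) makes adrenaline. In the embryo this pathway is known from sympathetic neurons and from chromaffin cells of the adrenal medulla, which lies next to the kidney, while *Ddc* and *Maoa* are also active in tissues with no catecholamine storage, the kidney's proximal tubule among them.

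The libraries differed in depth and make-up. Reads on genes numbered 35411905 and 37999342 in the controls and 22239293 and 17457452 in *Eya1*cKO, so that 3 counts, taken as the limit of detection, were worth from 0.0800 to 0.171 CPM (counts scaled to a common library size with TMM factors). *Eya1* was counted 6612 and 6420 times in the controls and 377 and 219 times in *Eya1*cKO, which goes with the labels (log2 fold change -3.60, standard error 0.18, adjusted *P* = 1.9e-04). Of 12 nephron progenitor markers 11 were lower in *Eya1*cKO, those of smallest *P* being *Pax2*, *Uncx* and *Eya1* itself, and their summed level was 2605 and 2616 CPM in the controls against 920 and 956 CPM. Reads on no annotated gene made up from 12.9% to 13.9% of records in the controls and from 20.9% to 22.7% in *Eya1*cKO, and unaligned reads 6.32% and 6.69% against 12.9% and 12.7%. At least 1 read lay on 26486 and 27091 genes in the controls and on 21455 and 20538 in *Eya1*cKO, and the part of these differences in the results was not tested. In sorted bulk cells, more cells of a type and more RNA per cell cannot be told apart, and this holds for every level below.

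*Th* and *Dbh* were under 1 CPM in the controls and between 47.5 and 89.8 CPM in *Eya1*cKO, *Ddc* and *Cyb561* were higher in *Eya1*cKO by smaller folds, and *Pnmt* showed no common direction. In the fit across all genes 6 of the 10 members had an adjusted *P* under 0.05, all higher in *Eya1*cKO: *Th*, *Ddc*, *Dbh*, *Cyb561*, *Slc18a1* and *Slc6a2*. The same threshold was passed by 9.56% of the 19041 genes tested, 5.15% higher and 4.41% lower, and because this contrast chose the members nothing is read from the difference. All 10 passed the low-count filter, but *Th*, *Dbh* and *Slc6a2* did so through the *Eya1*cKO libraries, since no more than 1 control library reached the filter's 0.347 CPM. Closest to the threshold were *Slc6a2* (adjusted *P* = 0.048) and *Slc18a1* (0.040) inside it and *Gch1* (0.19) and *Maoa* (0.19) outside it. With either control library left out, the members fell short of the threshold, as did nearly all genes tested. With either *Eya1*cKO library left out, far more of all genes passed than in the full fit, so passes of members there are not counted. In each of these fits 1 genotype has a single library, which is assumed to vary like the pair of the other genotype, so a pass there shows no replication within the lone arm. Without the low-count filter *Slc18a1* and *Slc6a2* no longer passed. Both *Eya1*cKO libraries lay above both controls for 8 of the 10, an arrangement that 25.3% of all tested genes had.

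*Th* (ENSMUSG00000000214, chr7:142892752-142931128 of GRCm38, minus strand), the rate-limiting enzyme, was counted 9 and 14 times in the controls, and 1075 and 950 times in *Eya1*cKO. The 2 genotypes were far apart and the libraries of each were close together. In CPM the mean was 0.315 ± 0.0820 (SD, n = 2) in the controls and 50.8 ± 4.64 (SD, n = 2) in *Eya1*cKO, 161-fold higher. On the log2 scale the difference was 7.29 ± 0.43 (standard error, as for all log2 fold changes below). It stayed between 7.04 and 7.57 when each library was left out in turn.

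*Dbh* (ENSMUSG00000000889, chr2:27165233-27183200, plus strand), the vesicle enzyme that separates noradrenergic from dopaminergic cells, was counted 11 and 35 times in the controls and 1522 and 1579 times in *Eya1*cKO. Here, too, both *Eya1*cKO libraries were high and both controls were low, with a wider gap between the controls than for *Th*. Mean levels were 0.624 ± 0.437 CPM (SD, n = 2) and 78.5 ± 16.0 CPM (SD, n = 2), 126-fold higher in *Eya1*cKO, and the log2 fold change was 6.92 ± 0.43. Leaving out control 2 raised it to 7.91 and leaving out control 1 lowered it to 6.35, so the size of the *Dbh* difference depended on the control library more than that of *Th*.

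The bases before the RefSeq start sites of *Th* and *Dbh* are shown because these genes had the largest differences with reads in every library, and that of *Slc18a2* because its levels overlapped between the genotypes. Each line holds the 250 bases upstream of the start site on the gene's own strand, 5′ to 3′, from RefSeq on GRCm38.p6, and capitals mark matches to the motifs named after them. The windows are chr7:142899996-142900245 (minus strand) for *Th*, chr2:27165257-27165506 (plus strand) for *Dbh* and chr19:59260628-59260877 (plus strand) for *Slc18a2*.
Th: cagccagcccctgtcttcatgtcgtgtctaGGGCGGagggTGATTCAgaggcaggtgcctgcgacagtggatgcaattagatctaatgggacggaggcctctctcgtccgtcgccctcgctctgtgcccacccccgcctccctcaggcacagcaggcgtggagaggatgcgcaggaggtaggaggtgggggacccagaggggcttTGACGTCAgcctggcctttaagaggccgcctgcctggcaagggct
Dbh: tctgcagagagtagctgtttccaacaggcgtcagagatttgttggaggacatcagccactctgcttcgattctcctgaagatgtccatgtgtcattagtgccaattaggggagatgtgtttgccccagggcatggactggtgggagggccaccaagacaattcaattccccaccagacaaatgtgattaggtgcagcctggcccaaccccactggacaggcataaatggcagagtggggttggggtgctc
Slc18a2: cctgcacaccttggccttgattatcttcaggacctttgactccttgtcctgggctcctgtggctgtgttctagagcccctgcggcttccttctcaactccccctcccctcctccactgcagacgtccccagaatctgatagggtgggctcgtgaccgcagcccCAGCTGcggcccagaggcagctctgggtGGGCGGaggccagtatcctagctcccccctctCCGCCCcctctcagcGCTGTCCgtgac

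8 motifs were searched on both strands of these windows and of the same 250 bases of all 32851 RefSeq promoter windows. *Th* held the cyclic AMP response element TGACGTCA from base -45 to base -38, a motif present in 1.55% of all windows. It also held an AP-1 motif (TGANTCA, 6.75% of windows) from -210 to -204 and a GC box (GGGCGG, 32.7%) from -220 to -215. None of the 8 motifs was found in the *Dbh* window. *Slc18a2* held an E-box (CAGCTG, 13.0%) from -87 to -82, 2 GC boxes from -59 to -54 and from -27 to -22, and the right-hand part of the RE1 element (GGACAGC, 5.28%, on the other strand) from -12 to -6. The remaining motifs were the NBRE core AAGGTCA (4.08%), the TATA box TATAAA (12.4%) and a paired homeodomain motif (0.463%). Of the other members with windows, *Ddc* has 2 start sites. The upstream one held an AP-1 motif and an NBRE core that overlaps a TATA match, and the other held none of the motifs. *Gch1* held 2 GC boxes and a TATA match, and *Maoa* held 1 GC box. Both TATA matches were on the other strand, from -68 to -63 in *Ddc* and from -188 to -183 in *Gch1*. The *Th* window was 64.4% G and C, that of *Slc18a2* 64.0% and that of *Dbh* 53.2%, against a median of 52.4% over all windows. A match of letters is a description and not a site of binding, and a missing match says only that these letters are not in the window.

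*Ddc* (ENSMUSG00000020182, chr11:11814101-11898144, minus strand), which decarboxylates L-DOPA and also 5-hydroxytryptophan, was counted 47 and 69 times in the controls and 313 and 220 times in *Eya1*cKO. The groups did not overlap. Its mean was 1.59 ± 0.351 CPM (SD, n = 2) in the controls and 13.2 ± 0.925 CPM (SD, n = 2) in *Eya1*cKO, 8.28-fold higher. The log2 fold change was 3.05 ± 0.53 and lay between 2.82 and 3.28 when each library was left out. The 2 *Eya1*cKO libraries, at 13.8 and 12.5 CPM, lay within counting error of each other (95% intervals 12.3 to 15.4 and 10.9 to 14.3 CPM).

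*Pnmt* (ENSMUSG00000038216, chr11:98386450-98388181, plus strand), the enzyme of adrenaline synthesis, was counted 13 and 44 times in the controls, 47 times in *Eya1*cKO 1 and 1 time in *Eya1*cKO 2. The control levels, 0.372 and 1.17 CPM, lay between those of the 2 *Eya1*cKO libraries. *Eya1*cKO 1 was at 2.08 CPM (exact Poisson 95% interval 1.53 to 2.76, which covers counting error only) and *Eya1*cKO 2 at 0.0569 CPM (0.00144 to 0.317), so portions of the same genotype differed by more than counting error. The log2 fold change was 0.60 ± 1.17, and without control 2 it was 1.65. Without *Eya1*cKO 1 the fitted value turned negative, to -3.71, but there the *Eya1*cKO level was 1 read, under the limit of 3 counts, so its size cannot be read.

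**Figure D1:**
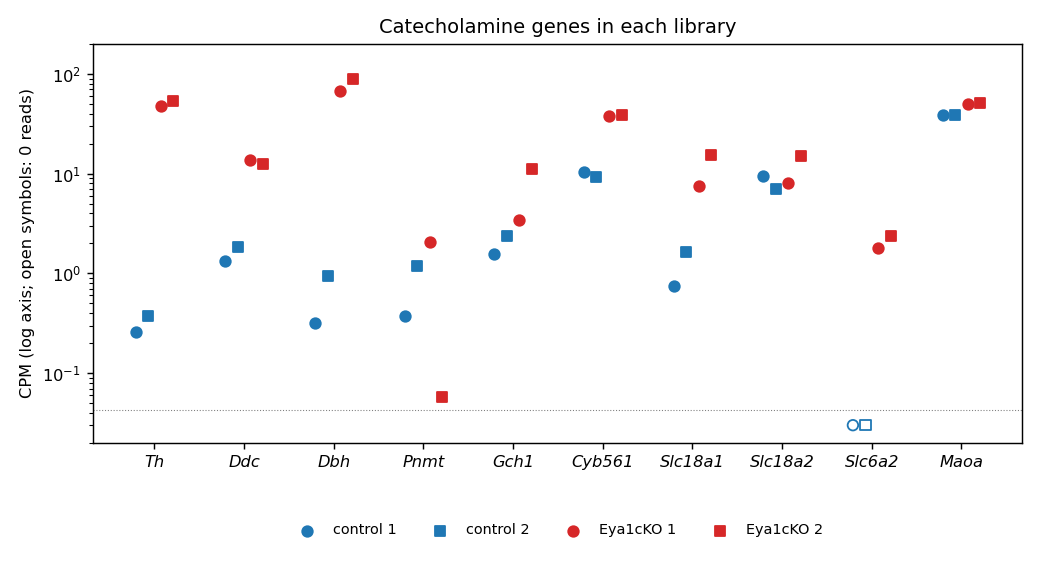
Level of each member in each library, in CPM on a log axis, with the 2 controls and the 2 Eya1cKO libraries as separate points. Th and Dbh lie under 1 CPM in both controls and between 47.5 and 89.8 CPM in Eya1cKO, whereas Pnmt and Slc18a2 overlap between the genotypes.

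Genes that serve the cofactors of *Th* and *Dbh* were less uniform. *Gch1* (ENSMUSG00000037580, chr14:47153895-47189413, minus strand), GTP cyclohydrolase, opens tetrahydrobiopterin synthesis. It was counted 55 and 89 times in the controls and 77 and 197 times in *Eya1*cKO, that is 1.57, 2.37, 3.40 and 11.2 CPM. The 2 genotypes did not overlap, but *Eya1*cKO 1 was near control 2 (95% counting intervals 2.68 to 4.25 and 1.91 to 2.92 CPM), and *Eya1*cKO 2 had 3.30 times the level of *Eya1*cKO 1. The means were 1.97 ± 0.566 and 7.30 ± 5.52 CPM (SD, n = 2 each) and the difference, 1.78 ± 0.78 on the log2 scale, did not pass. It was 0.76 without *Eya1*cKO 2 and 2.48 without *Eya1*cKO 1.

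*Cyb561* (ENSMUSG00000019590, chr11:105933702-105953336, minus strand), the cytochrome that carries electrons into chromaffin vesicles to regenerate ascorbate for *Dbh*, was the most even of the members that passed. It was counted 363 and 344 times in the controls and 865 and 674 times in *Eya1*cKO. At 9.77 ± 0.853 CPM and 38.3 ± 0.0993 CPM (SD, n = 2 each) the groups were well apart, 3.92-fold, and the log2 fold change was 1.97 ± 0.25, between 1.87 and 2.04 with each library left out. Of its exonic length 10.3% overlaps the antisense gene *Gm9910*, whose reads cannot be told from its own if strand was not used in counting.

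The vesicular monoamine transporters differed from each other. *Slc18a1* (ENSMUSG00000036330, chr8:69037711-69089235, minus strand), VMAT1, the transporter typical of chromaffin and other endocrine cells, was counted 26 and 62 times in the controls and 169 and 270 times in *Eya1*cKO. Its levels of 0.743 and 1.65 CPM against 7.46 and 15.4 CPM did not overlap, with means of 1.20 ± 0.643 and 11.4 ± 5.58 CPM (SD, n = 2 each). *Slc18a1* was 9.53-fold higher, 3.17 ± 0.72 in log2, which became 3.86 without control 2 and 2.60 without *Eya1*cKO 2. *Slc18a2* (ENSMUSG00000025094, chr19:59260896-59296012, plus strand), VMAT2, the transporter typical of monoamine neurons, was counted 331 and 265 times in the controls and 183 and 267 times in *Eya1*cKO.

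*Slc18a2* lay at 9.46 and 7.06 CPM in the controls, with 8.08 and 15.2 CPM for *Eya1*cKO, and the groups overlapped, since *Eya1*cKO 1 lay between the controls. Of its exonic length 2.12% overlaps the antisense gene *Gm29261*. Its log2 fold change was 0.45 ± 0.46, and it became -0.041 without *Eya1*cKO 2 and 0.87 without *Eya1*cKO 1. Of the reads on the 2 transporters, *Slc18a1* took 7.28% in control 1 (exact 95% interval 4.81 to 10.5, 357 reads) and 19.0% in control 2 (14.9 to 23.6, 327 reads). In *Eya1*cKO it took 48.0% (42.7 to 53.4, 352 reads) and 50.3% (46.0 to 54.6, 537 reads). The intervals of the controls lay apart from those of *Eya1*cKO and also from each other, and per kb of exon the shares were 7.06%, 18.5%, 47.2% and 49.5%.

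*Slc6a2* (ENSMUSG00000055368, chr8:92960079-93001667, plus strand), the noradrenaline transporter that takes the transmitter back into the cell, had no read in either control library and 41 and 42 reads in *Eya1*cKO. A count of 0 allows up to 3 reads, so its mean of 2.10 ± 0.409 CPM (SD, n = 2) in *Eya1*cKO was at least 25.3-fold higher than 0.0829 CPM, the level of 3 counts per library averaged over the controls. The level was low even in *Eya1*cKO, at 1.81 and 2.39 CPM.

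*Maoa* (ENSMUSG00000025037, chrX:16619698-16687818, plus strand), the monoamine oxidase that degrades serotonin and noradrenaline, was the one member abundant in the controls. It was counted 1371 and 1451 times there and 1135 and 891 times in *Eya1*cKO, at 39.2 and 38.7 CPM against 50.1 and 50.7 CPM. The groups did not overlap and the libraries of a genotype were nearly equal, at 38.9 ± 0.360 and 50.4 ± 0.396 CPM (SD, n = 2 each). The difference was 1.29-fold, or 0.37 ± 0.17 in log2, and did not pass.

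**Figure D2:**
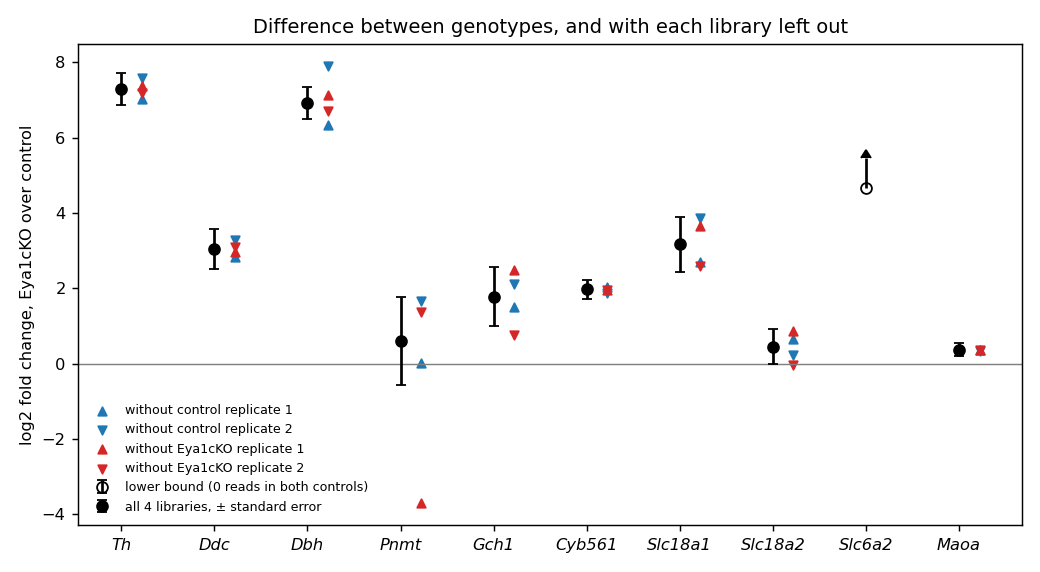
Log2 fold change of each member, Eya1cKO over control, with its standard error (black) and with each library left out (triangles). The open circle of Slc6a2 is a lower bound, drawn at 4.66. Th stays between 7.04 and 7.57, while Pnmt is fitted at -3.71 without Eya1cKO replicate 1, a value that rests on 1 Eya1cKO read.

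The median log2 fold change was 2.51 over the 10 members, with *Slc6a2* at its fitted value or at its bound, and 0.016 over all genes tested. Summed over the members, the level was 63.6 and 63.3 CPM for the controls, most of it from *Maoa*, and 240 and 290 CPM for *Eya1*cKO, where *Dbh* was the largest contributor.

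The order of the genes by level, in CPM per kb of exon, also differed. In the controls *Maoa* led at 9.34 ± 0.0863 (SD, n = 2), followed by *Cyb561* at 2.68 ± 0.233 and *Slc18a2* at 1.58 ± 0.324, and these did not overlap with their neighbours. *Pnmt*, *Ddc*, *Gch1*, *Dbh*, *Slc18a1* and *Th* followed between 0.669 and 0.133 with each overlapping the next, and *Slc6a2* was at 0. In *Eya1*cKO *Dbh* led at 29.2 ± 5.94 and *Th* was next at 21.5 ± 1.96, before *Maoa* at 12.1 ± 0.0952 and *Cyb561* at 10.5 ± 0.0272, each apart from its neighbour. Below them *Ddc* (2.95 ± 0.207), *Slc18a2* (2.23 ± 0.962), *Slc18a1* (2.11 ± 1.03), *Gch1* (1.17 ± 0.883), *Pnmt* (0.924 ± 1.24) and *Slc6a2* (0.334 ± 0.0650) each overlapped the next. The exon lengths come from a later annotation than the one counted on, which limits these values as absolute levels.

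**Figure D3:**
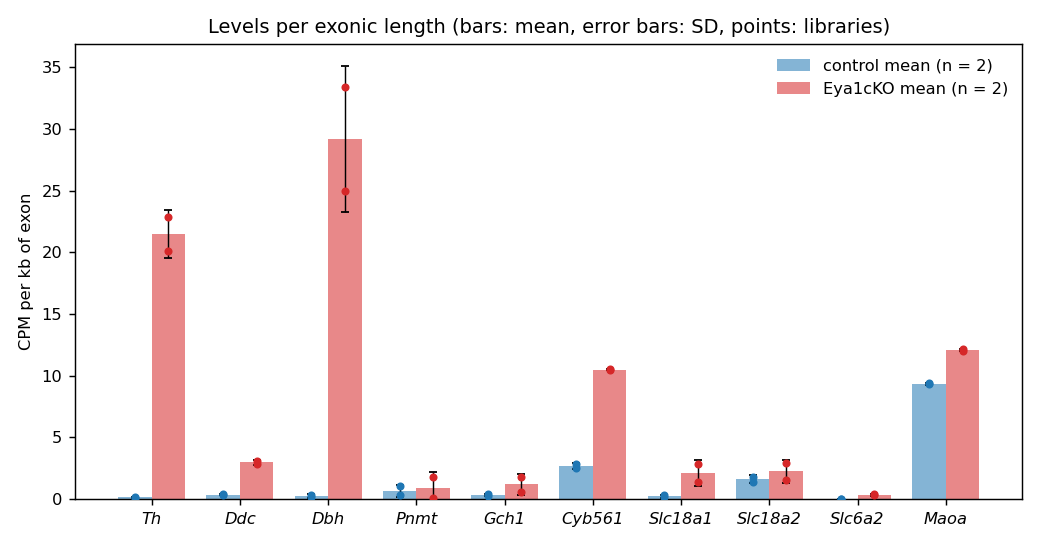
Level per exon length of each member in each library, in CPM per kb, by genotype. Maoa leads in the controls at 9.34 CPM per kb, and Dbh and Th lead in Eya1cKO at 29.2 and 21.5 CPM per kb.

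Most other genes of the pathway did not pass. Of 59 further genes listed by role, 50 were tested and 4 passed, 2 higher and 2 lower, which is 8% of those tested against 9.56% of all genes. With either control left out they fell short of the threshold, as did nearly all genes tested. With either *Eya1*cKO library left out more of them passed, as did far more of all genes, so these passes are not counted. Among the 4 that passed in the full fit were *Hdc*, *Slc31a1* and *Moxd1*.

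3 genes that act with *Gch1* in tetrahydrobiopterin synthesis and recycling did not pass. *Pts*, the next enzyme of the route, had a log2 fold change of 0.53 ± 0.31, *Spr*, the last, 0.53 ± 0.24, and *Qdpr*, which recycles the cofactor, -0.58 ± 0.24. *Gchfr*, the feedback regulator of GTP cyclohydrolase, was counted 24 and 34 times in the controls and 35 and 103 times in *Eya1*cKO. It was thus highest in *Eya1*cKO 2, the library in which *Gch1* was highest.

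Of 9 genes that supply ascorbate and copper, the importer *Slc31a1* was higher in *Eya1*cKO at 0.78 ± 0.14 (log2 fold change, adjusted *P* = 0.019), with 1730 and 1771 reads in the controls and 1858 and 1466 reads in the smaller *Eya1*cKO libraries, where it lay above both controls once scaled. *Moxd1*, a copper enzyme related in sequence to *Dbh*, went the other way. It was counted 1472 and 1347 times in the controls and 104 and 84 times in *Eya1*cKO, at -3.06 ± 0.34 (adjusted *P* = 0.0038). *Dbh* took 0.742% and 2.53% of the reads on this pair in the controls and 93.6% and 94.9% in *Eya1*cKO. The ascorbate carrier *Slc23a1* was counted 98, 129, 273 and 182 times in the 2 controls and then the 2 *Eya1*cKO libraries, an order kept below, and its difference of 1.85 ± 0.48 (log2) missed the threshold (adjusted *P* = 0.059).

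A list of aromatic amino acid carriers, related hydroxylases and *Hdc*, histidine decarboxylase, had 8 genes, of which 6 were tested and *Hdc* alone passed. It was counted 409 and 425 times in the controls and 717 and 712 times in *Eya1*cKO, at 1.63 ± 0.27 (adjusted *P* = 0.014). *Slc7a5*, the light chain of the carrier that brings tyrosine into cells, was at -0.53 ± 0.14 (adjusted *P* = 0.060). Of the tryptophan hydroxylases, *Tph1* was counted 17, 33, 29 and 0 times and *Tph2* 24, 0, 2 and 0 times.

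No gene of the other monoamine transporters, of the other breakdown enzymes or of the receptors passed in edgeR's test, where 7 of 9, 10 of 11 and 11 of 15 were tested. At an unadjusted *P* under 0.05 there were 2, 1 and 0 of them, and DESeq2's Wald test called 1, 1 and 0. *Slc6a3*, the dopamine transporter, was counted 10 times in control 2 and not at all elsewhere, and *Slc6a4*, the serotonin transporter, 52, 118, 236 and 21 times. *Maob*, the other monoamine oxidase, was counted 97, 130, 24 and 59 times, so *Maoa* took from 91.8% to 97.9% of the reads of the pair in every library. Of the receptors, *Adra2a* was counted 358, 449, 240 and 231 times, and *Drd3* and *Taar1* had no read in any library.

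Many marker genes of the cell types known for this pathway were higher in the same libraries. Of 15 sympathoadrenal and chromaffin markers, all tested, 9 passed as higher and 0 as lower, against 5.15% and 4.41% of all genes tested. *Gata2* and *Gata3*, which did not pass, had log2 fold changes of -0.13 and -0.60. The median log2 fold change of the list was 5.52. Its summed level was 91.0 and 103 CPM in the controls against 611 and 609 CPM in *Eya1*cKO. The markers of smallest *P* were *Chga* (44, 52, 3478 and 3001 reads) and *Chgb* (68, 190, 4247 and 3132 reads), which encode granins of secretory vesicles, and the homeobox gene *Tlx2* (3, 5, 781 and 786 reads). Most of the control level came from *Gata2* and *Gata3*, which the kidney also expresses, and none of the 15 was at 0 in a control library.

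Markers of the adrenal cortex, the neighbouring tissue that makes steroids, moved with them. Of 11, 10 were tested and all 10 were higher, with a median of 5.95 and a summed level of 83.1 and 73.2 CPM against 1007 and 936 CPM. *Hsd3b1*, which makes progesterone, was counted 7, 14, 5569 and 4694 times, and *Cyp21a1*, the steroid 21-hydroxylase, 3, 15, 1658 and 1175 times, though both have close copies between which reads may be split. *Cyp17a1* had at most 3 reads in any library. The part of these cell types in the levels of the catecholamine genes was not tested.

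*Ddc* and *Maoa* are also genes of the proximal tubule, whose markers were higher too. Of 11, 9 were tested, and all 9 had both *Eya1*cKO libraries above both controls. The threshold was passed by 6, among them *Hnf4a* and *Lrp2*. The median was 2.10 and the summed level 128 CPM in each control against 475 and 489 CPM. *Gatm* had at most 3 reads in any library. Of 10 neuronal markers 4 passed as higher and 1 as lower, with sums of 56.4, 59.7, 122 and 136 CPM. Of 8 Schwann cell precursor and neural crest markers 6 were tested and only *Sox10* passed, with 0, 5, 83 and 75 reads. That count is edgeR's, with 4 at an unadjusted *P* under 0.05 and 3 called by DESeq2's Wald test. Sums over this list were 66.3, 65.5, 93.5 and 95.9 CPM. All 8 endothelial markers were higher, at sums of 621, 635, 1115 and 1135 CPM. Of 7 stromal markers 3 passed as higher and 1 as lower, and of 9 ureteric bud markers 0 as higher and 2 as lower. None of 8 macrophage markers passed (edgeR, 2 at an unadjusted *P* under 0.05, 0 by DESeq2's Wald test). The part of these cell types in the results was not tested either.

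**Figure D4:**
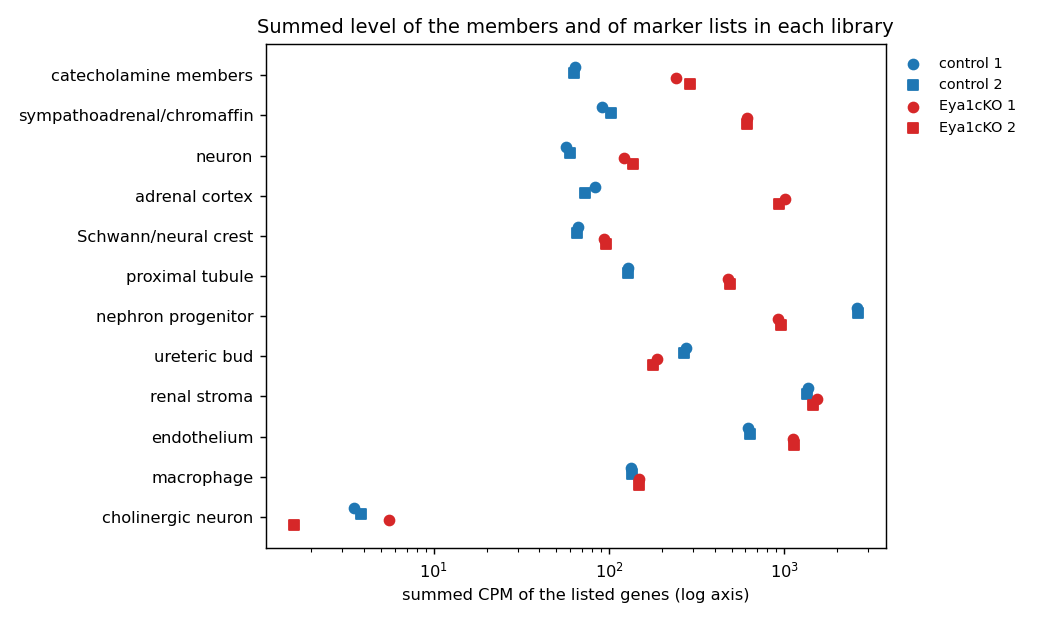
Summed level of each marker list and of the 10 members in each library, in CPM on a log axis. The adrenal cortex list goes from 83.1 and 73.2 CPM in the controls to 1007 and 936 CPM in Eya1cKO, and the members from 63.6 and 63.3 to 240 and 290 CPM, while nephron progenitor markers go from 2605 and 2616 to 920 and 956 CPM.

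The genes with the pattern most like each of 5 members were found by the distance between log2 CPM values centred on each gene over the 4 libraries, where 0 means the same pattern. With 4 libraries in 2 groups, such likeness is mostly the size of the genotype difference. Nearest to *Th* were *Akr1cl* (distance 0.286), *Chga* (0.288), *Scg2* (0.310), *Tlx2* (0.740) and *Mrap* (0.784). Nearest to *Dbh* were *Mrap* (0.246), *Akr1cl* (0.711), *Scg2* (0.903), *Chga* (0.908) and *Cyp11b1* (1.04). *Th* and *Dbh* thus shared 4 of their 5 nearest genes. For *Ddc* they were *Serpinf2* (0.192), *C1ra* (0.209), *Fxyd3* (0.229), *Slc6a18* (0.234) and *Gm43088* (0.275), none of which was near *Th* or *Dbh*. *Gch1* was nearest to *Itga11* (0.140), *Apoc1* (0.169), *Adgrg3* (0.205), *Wnt2* (0.210) and *Gm4707* (0.265), genes with their highest level in *Eya1*cKO 2. *Maoa*, with its small difference, had very close neighbours in *Mmp16* (0.0183), *Tpgs1* (0.0214), *Appl2* (0.0250), *Zfp395* (0.0274) and *Flnc* (0.0298).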

How the data were processed

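mRNA of sorted cells was sequenced from 2 control and 2 *Eya1*cKO libraries. The authors made random-primed SMARTer libraries, mapped single-end reads to mm10 with HISAT2 and counted them on Ensembl genes with HTSeq-count, and the deposited values are those counts, not normalized. Tool versions and the strand setting were not given in the sources used here. The labels and the methods give different numbers of kidneys and dams.

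Counts were tested with edgeR 4.0.16 in R 4.3.3 (TMM, filterByExpr with a minimum count of 10, glmQLFit and glmQLFTest with legacy = FALSE, Benjamini-Hochberg adjustment over all genes tested, threshold 0.05). The standard error of a log2 fold change is its size divided by the root of the F statistic. Counts were divided by TMM-scaled totals to give CPM, and 3 counts per library were taken as the floor. Counting intervals are exact (Poisson or Clopper-Pearson, SciPy 1.17.1) and cover counting error only. Positions and exon lengths are from GENCODE M21 on GRCm38. The tests were tried on simulated counts first.

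The members, the pathway and marker lists and the motifs were chosen with earlier results of these data known. Named besides the members were up to 3 called genes of smallest *P* per list and direction, pathway genes with a role to state, and the 5 nearest patterns of *Th*, *Dbh*, *Ddc*, *Gch1* and *Maoa*. Some genes of these lists are counted but not reported here by name. Alternatives were DESeq2 1.42.0 size factors and its Wald test, library totals, other filters, leaving out each library, and a replicate block. Control 1 and *Eya1*cKO 1 did not deviate together (correlation 0.0247 over 12729 genes).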

Additional observations from a re-analysis of the deposited data

How the results depend on the processing

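With all 4 libraries 1820 genes passed, 6 of them members, and 2 pathway genes were higher and 2 lower. With DESeq2's size factors or library totals the counts were 1792 and 1776 genes and 6 members each. With no low-count filter 1055 genes passed, 4 of them members, and 1 pathway gene was lower. With at least 10 counts in every library 2243 genes passed, 4 of them members (*Th*, *Pnmt* and *Slc6a2* not being tested), with 4 pathway genes higher and 3 lower. DESeq2's Wald test called 3102 genes, 6 of them members, with 5 pathway genes higher and 3 lower. With the replicate block 621 genes and 3 members (*Th*, *Dbh*, *Cyb561*) passed, 0 pathway genes were higher (edgeR, 7 at an unadjusted *P* under 0.05) and 1 lower, but the libraries share only a number. With each library left out, genes that passed ranged from 23 to 7925, members from 0 to 8, pathway genes higher from 0 to 15 and lower from 0 to 8. The low counts came without either control, when the lone control was assumed to vary like the *Eya1*cKO pair, and the high counts without either *Eya1*cKO library, when the lone one was assumed to vary like the control pair. The log2 fold change of *Pnmt* ran from -3.71 to 1.65 and that of *Slc18a2* from -0.041 to 0.87, *Pnmt* turning without *Eya1*cKO 1 (on 1 read) and *Slc18a2* without *Eya1*cKO 2. Of the members' 97 alternative values 76 kept direction and side of the threshold, 17 fell short of it, 2 newly passed and 2 turned. The cause was not tested. Depth limits *Slc6a2*, *Pnmt* and the control levels of *Th* and *Dbh*, which rest on few reads.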

Other observations

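Of 7 markers of serotonin, mast or enterochromaffin cells 5 were tested and *Hdc* alone passed, as higher. Sums over the list were 60.8 and 66.4 CPM (controls) and 101 and 104 CPM (*Eya1*cKO). None of 5 cholinergic markers passed (edgeR, 1 at an unadjusted *P* under 0.05, 0 by DESeq2's Wald test), and their sums were 3.49, 3.84, 5.52 and 1.59 CPM. No gene of the erythroid list passed the low-count filter. *Th* took 34.6% and 29.8% of the reads on *Th* and *Tph1*, the first enzymes of catecholamine and serotonin synthesis, in the controls, and 97.4% and 100% in *Eya1*cKO.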
